A study of Solanum lycopersicum with 10 samples.

Results

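Auxin is perceived in the nucleus by F-box proteins of the TIR1/AFB family, which bind the hormone together with an Aux/IAA protein and direct that Aux/IAA protein to breakdown. Until then the Aux/IAA protein holds a TOPLESS co-repressor at promoters occupied by auxin response factors (ARFs), so the receptors and the TOPLESS proteins are the start and the silencing end of the same short pathway. TOPLESS proteins also serve repressors outside auxin signalling. The loci described here are 10 of the 35767 in the table, chosen by identifier: 4 listed as TIR1/AFB receptors (Solyc09g074520, Solyc04g074980, Solyc02g079190 and Solyc06g008780) and 6 listed as TOPLESS family members (Solyc01g100050, Solyc03g116750, Solyc08g076030, Solyc07g008040, Solyc03g117360 and Solyc08g029050). All 10 were present. The table carries identifiers without gene names, so the family of each locus rests on that list and could not be checked, and no role within the family is given to single loci.

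Polyadenylated transcripts of the tomato line M82 (Solanum lycopersicum) were sequenced from their 3' ends. The root experiment compared seedlings moved 4 days after germination to plates with 1 µM 2,4-D for 3 h (2 libraries) with mock seedlings (2 libraries), grown at 22 °C in continuous light, and used the terminal 1 cm of the root. The leaf experiment compared greenhouse plants 3 weeks old sprayed with 1 µM picloram for 3 h (3 libraries) with mock-sprayed plants (3 libraries), and used young primordia of leaf 5, 15 of them by the protocol. Both compounds are synthetic auxins, and no mutant or transgene is involved.

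Values are normalized counts as deposited, and library totals were 2.83 to 2.96 M in root and 1.83 to 2.06 M in leaf. The tissue labels were checked on 9 photosynthetic loci (Rubisco small subunit and light-harvesting proteins) and 2 YABBY lamina regulators, all 11 of which were higher in every leaf library than in any root library. The photosynthetic loci summed to 16.5 to 113 normalized counts in root and 8470 to 16027 in leaf, and the YABBY loci to 0 to 1.22 in root and 686 to 876 in leaf. The labels do not say that libraries of a group came from separate plants or cultures, so the p-values measure the spread between these libraries, which may be technical.

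Of the 10 loci, 8 were at levels that could be tested, meaning at least 10 normalized counts in at least 2 libraries of a tissue. Each of the 8 met this in both tissues and in the mock libraries alone, so none entered through treatment. The receptor Solyc06g008780 stayed between 0 and 4.11 normalized counts and the TOPLESS locus Solyc08g029050 between 0 and 7.64, where 1 read is worth about 0.786 to 1.22 normalized counts depending on the library. Neither was tested. Solyc06g008780 read 2.55 and 0 normalized counts on 2,4-D and 1.72 and 2.25 in mock root, and 3.89, 4.11 and 1.03 under picloram against 1.21, 0 and 1.65 in mock leaf. Solyc08g029050 read 7.64 and 1.23 on 2,4-D and 3.42 and 2.24 in mock root, and 0, 1.05 and 2.09 under picloram against 0, 1.20 and 0.84 in mock leaf. For both loci the treated and mock ranges overlapped in each tissue.

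The 8 tested loci ranged from 9.79 to 709.9 normalized counts over the 10 libraries. Among loci tested in a tissue, Solyc09g074520 stood at percentile 86.2 of the mean level in root and 96 in leaf, and Solyc03g117360, the lowest of the 8 in root, at 10.4 in root and 33.3 in leaf.

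**Figure D1:**
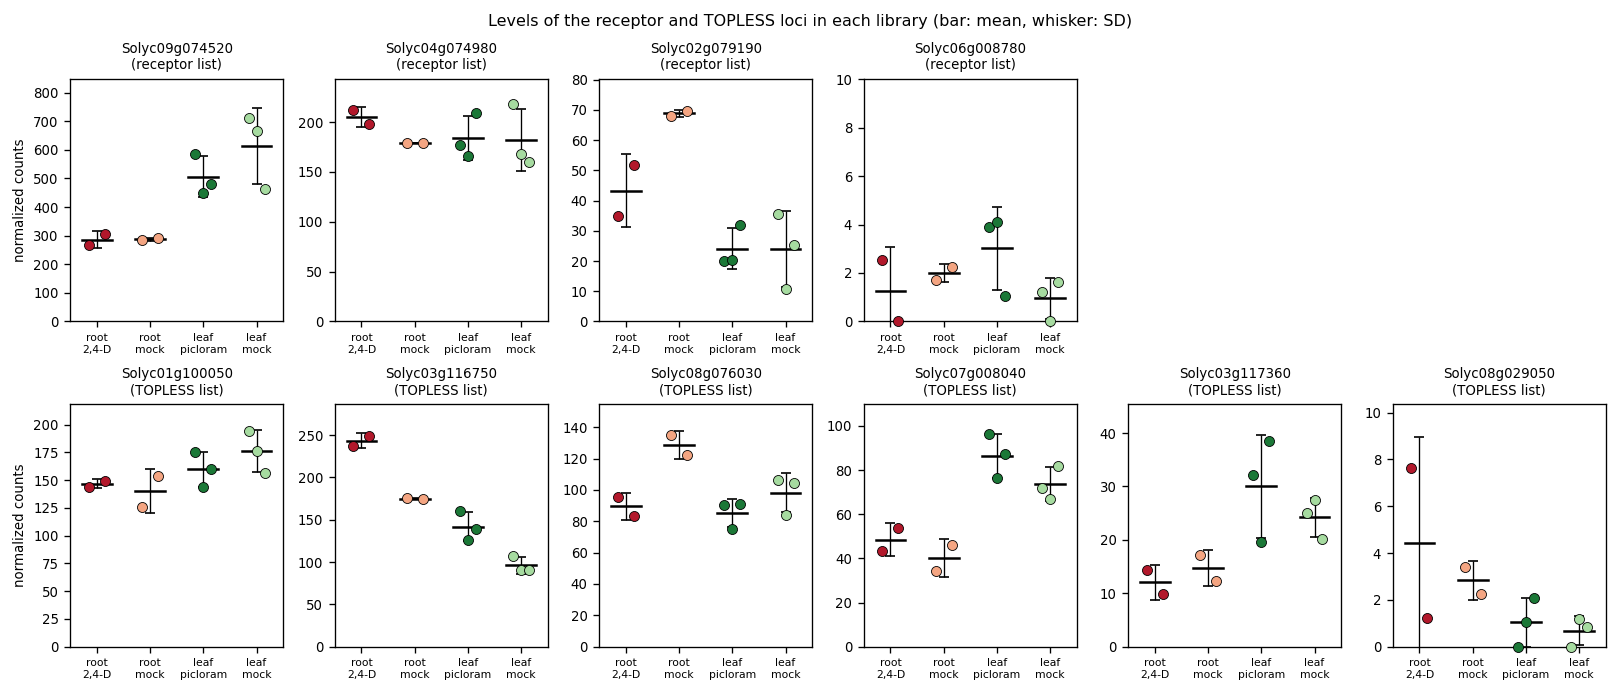
Normalized counts (vertical axis) of each receptor locus (upper row) and TOPLESS locus (lower row) in every library of the 4 groups, with the group mean (bar) and SD (whisker); each panel has its own scale from 0. Solyc03g116750 is higher in every treated library than in any mock library of the same tissue, and Solyc09g074520 is lower in all root libraries than in any leaf library.

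The first comparison asks whether receptor transcripts differed between 2,4-D and mock root tips. None of the 3 tested receptors was called by limma at an adjusted p under 0.05, where 4.55% of all 12664 tested loci were called, and 0 of the 3 had an unadjusted p under 0.05, against 16.3% of all. Solyc09g074520, the most abundant receptor, had 266 and 307 normalized counts on 2,4-D and 284 and 291 in mock, so the treated libraries lay on either side of the mock pair. Its log2 fold change was -0.01 ± 0.20 (SE, limma adjusted p = 0.991), with a 95% interval of -0.44 to 0.43. Solyc04g074980 had 213 and 198 normalized counts on 2,4-D against 179.4 and 179.3 in mock. The groups did not overlap, but the log2 fold change of 0.19 ± 0.17 was not called (SE, limma adjusted p = 0.673, 95% interval -0.19 to 0.57). Solyc02g079190 had 34.9 and 51.8 normalized counts on 2,4-D against 68.1 and 69.6 in mock. Both treated libraries lay below both mock libraries, and the log2 fold change of -0.68 ± 0.46 was not called either (SE, limma adjusted p = 0.542, 95% interval -1.70 to 0.33). Separation of this kind is common with 2 libraries a side: 26.4% of tested loci were higher and 27.4% lower on 2,4-D with no overlap.

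In leaf primordia none of the 3 tested receptors was called between picloram and mock, where 10.2% of 14410 tested loci were called, and 0 had an unadjusted p under 0.05, against 24.9% of all. Solyc09g074520 had 586, 449 and 482 normalized counts under picloram against 709.9, 667 and 462 in mock. The picloram mean was 505 ± 71.5 against 613 ± 133 in mock (SD, n = 3 each), but the lowest mock library fell inside the picloram range. The log2 fold change was -0.26 ± 0.16 (SE, limma adjusted p = 0.356, 95% interval -0.62 to 0.09). Solyc04g074980 was close to level, at 184 ± 22.3 normalized counts under picloram against 182 ± 31.1 in mock (SD, n = 3 each), with a log2 fold change of 0.02 ± 0.14 and a 95% interval of -0.29 to 0.33 (SE, limma adjusted p = 0.946). Solyc02g079190 had 20.1, 20.2 and 32.0 normalized counts under picloram against 35.7, 10.8 and 25.5 in mock. Its mock libraries spanned the whole picloram range, and the interval of its log2 fold change, -0.71 to 0.95, is too wide to say whether the level moved (estimate 0.12 ± 0.38, SE, limma adjusted p = 0.889).

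Among the TOPLESS loci, 1 of 5 tested members rose under picloram in leaf and none fell, where 4.89% of tested loci rose and 5.26% fell (5.95% and 3.69% with equal library totals). This was Solyc03g116750, which had 160.1, 126.6 and 139 normalized counts under picloram against 107.7, 90.0 and 90.2 in mock. All 3 picloram libraries lay above all 3 mock libraries, as they did for 13.9% of tested loci, while 15.3% lay wholly below mock. The picloram mean was 142 ± 17.0 against 96.0 ± 10.2 in mock (SD, n = 3 each), a ratio of 1.48 and a log2 fold change of 0.56 ± 0.13 (SE, limma adjusted p = 0.0203, 95% interval 0.27 to 0.84). The call rested on the libraries present: it ended when any 1 of mock libraries 2 and 3 and picloram libraries 1 and 3 was removed, and with leaf fitted alone, at adjusted p between 0.0517 and 0.0765, while the log2 fold change stayed between 0.47 and 0.64 over all 20 alternatives. The photosynthetic loci moved in the same libraries, summing to 8470, 10153 and 11014.5 normalized counts under picloram against 15502, 16027 and 14852 in mock, whereas the YABBY loci summed to 694, 749 and 740.5 under picloram against 686, 794 and 876 in mock. The part of such shifts in the TOPLESS result was not tested, and in bulk tissue fewer cells of a type and less RNA per cell cannot be told apart.

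In root tips Solyc03g116750 had 237 and 249.5 normalized counts on 2,4-D against 175.8 and 174.3 in mock. Both treated libraries were again above both mock libraries, at 244 ± 8.54 on 2,4-D against 175 ± 1.09 in mock (SD, n = 2 each), a ratio of 1.39. The log2 fold change was 0.47 ± 0.16 with a 95% interval of 0.12 to 0.83, but it was not called (SE, limma adjusted p = 0.147). With root fitted alone it was called, at limma adjusted p = 0.0495. In that fit 5.75% of all tested loci rose and 3.26% fell, beside 3.48% and 1.07% in the fit of all libraries. The photosynthetic loci summed to 16.5 and 113 normalized counts on 2,4-D against 17.1 and 95.4 in mock root, so each group held 1 low and 1 high library. Over the 11313 loci tested in both tissues, 4.41% were higher than mock with no overlap in both, as Solyc03g116750 was, and 0.575% were called higher in both, which it was not.

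Solyc08g076030 went the other way in root, with 95.7 and 83.3 normalized counts on 2,4-D against 134.8 and 122.4 in mock. Both treated libraries were below both mock libraries, and the log2 fold change was -0.52 ± 0.18 with a 95% interval of -0.92 to -0.12. It was not called (SE, limma adjusted p = 0.166) in the fit of all libraries or in any of 20 alternatives (adjusted p 0.0852 to 0.579). In leaf it had 90.0, 75.2 and 91.1 normalized counts under picloram against 106.6, 84.3 and 104.1 in mock. The ranges overlapped there, and the log2 fold change was -0.20 ± 0.15 (SE, limma adjusted p = 0.469, 95% interval -0.53 to 0.13).

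The other 3 tested TOPLESS loci were not called in either tissue, so 0 of 5 were called in root, where 3.48% of all tested loci rose and 1.07% fell, and 1 of 5 in leaf. An unadjusted p under 0.05 was found for 2 of the 5 in root, Solyc03g116750 and Solyc08g076030, against 16.3% of all loci, and for 1 of the 5 in leaf, against 24.9%. Solyc01g100050, the most abundant in leaf, had a log2 fold change of 0.07 ± 0.17 in root (SE, limma adjusted p = 0.893, 95% interval -0.29 to 0.44) and -0.14 ± 0.14 in leaf (SE, limma adjusted p = 0.599, 95% interval -0.43 to 0.16). Solyc07g008040 had 43.3 and 53.8 normalized counts on 2,4-D against 34.2 and 46.1 in mock root, and was at 86.6 ± 10.02 under picloram against 73.6 ± 7.74 in mock leaf (SD, n = 3 each). Its treated and mock ranges overlapped in both tissues. The low-level Solyc03g117360 had 14.4 and 9.79 on 2,4-D against 17.2 and 12.3 in mock root, where the ranges also overlapped, and was at 30.1 ± 9.66 under picloram against 24.2 ± 3.71 in mock leaf (SD, n = 3 each). At these levels its 95% intervals, -1.12 to 0.57 in root and -0.43 to 0.95 in leaf, allow sizeable changes in either direction. The median log2 fold change of the 5 tested TOPLESS loci was 0.07 in root and 0.23 in leaf, beside -0.02 and 0.00 over all tested loci. For the 3 receptors it was -0.01 in root and 0.02 in leaf.

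**Figure D2:**
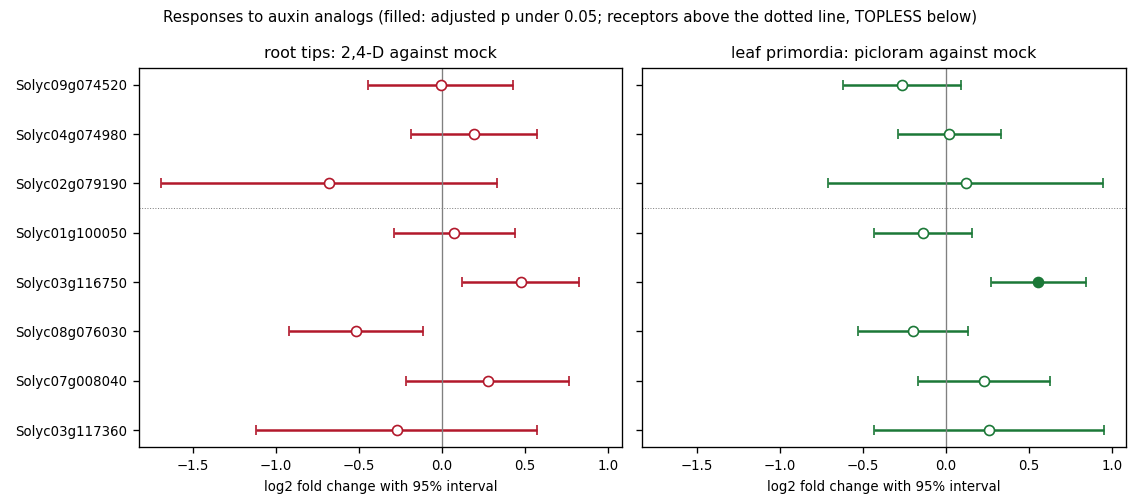
Log2 fold change (horizontal axis) of each tested locus with its 95% interval, for 2,4-D against mock in root tips (left) and picloram against mock in leaf primordia (right); filled points passed an adjusted p under 0.05. Solyc03g116750 in leaf is the only filled point, and in root the intervals of Solyc03g116750 and Solyc08g076030 lie on opposite sides of 0.

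The root response minus the leaf response was tested directly for the same 8 loci, and none was called by limma, where 3.76% of 11313 loci were called, and 0 of the 8 had an unadjusted p under 0.05, against 17% of all. The comparison takes tissue, compound, plant age and mode of application together. For Solyc03g116750 the difference was -0.08 ± 0.21 (SE, limma adjusted p = 0.879), with a 95% interval of -0.54 to 0.37. The difference with the lowest estimate was that of Solyc02g079190, at -0.80 ± 0.60 (SE, limma adjusted p = 0.552), with a 95% interval of -2.11 to 0.51.

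Within each library the level of Solyc03g116750 was also set against that of Solyc08g076030, a ratio that multiplying a library by a constant does not change, although quantile normalization can. The pair was chosen after its values were seen, so the ratio is given with no test. It was 2.48 and 3.00 on 2,4-D against 1.30 and 1.42 in mock root. It was 1.78, 1.68 and 1.52 under picloram against 1.01, 1.07 and 0.866 in mock leaf. In each tissue every treated library had the higher ratio, and every root library exceeded every leaf library of the same kind of treatment.

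The make-up of each family was described as the share of its summed level. The kit reads the 3' end, so counts are not divided by transcript length. Shares between loci still depend on how completely each 3' end was annotated, which is not given in the sources used here. Solyc09g074520 was the first-ranked receptor in all 10 libraries and held 51.5% to 55.1% of the receptor sum in root and 66.6% to 78.8% in leaf. Solyc04g074980 held 33.1% to 41.2% in root and 19.9% to 28.9% in leaf, and Solyc02g079190 6.77% to 12.8% in root and 1.27% to 4.42% in leaf. For each of these receptors the root and leaf ranges were apart. The receptor loci summed to 516 and 557 normalized counts on 2,4-D and 533 and 542 in mock root, and to 786, 639 and 724 under picloram and 965, 846 and 649 in mock leaf.

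Among TOPLESS loci the first place differed by tissue. Solyc03g116750 ranked first in all 4 root libraries, with 43.8% and 45.6% of the TOPLESS sum on 2,4-D against 35.8% and 34.1% in mock. Solyc01g100050 ranked first in all 6 leaf libraries, with 31.6%, 32.5% and 31.0% under picloram against 38.4%, 39.6% and 34.5% in mock. In leaf Solyc03g116750 held 26.8% to 28.9% of the sum under picloram against 19.9% to 21.3% in mock. Solyc08g076030 held 15.2% and 17.6% on 2,4-D against 23.9% and 27.4% in mock root, and 16.3% to 17.6% under picloram against 18.9% to 22.9% in mock leaf. Shares of a sum are tied, so a larger share of one locus lowers those of the others. The levels of Solyc01g100050 and Solyc08g076030 overlapped between picloram and mock leaf. The summed TOPLESS level was 542 and 547 normalized counts on 2,4-D against 491 and 511 in mock root, and 443 to 554 under picloram against 446 to 506 in mock leaf.

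**Figure D3:**
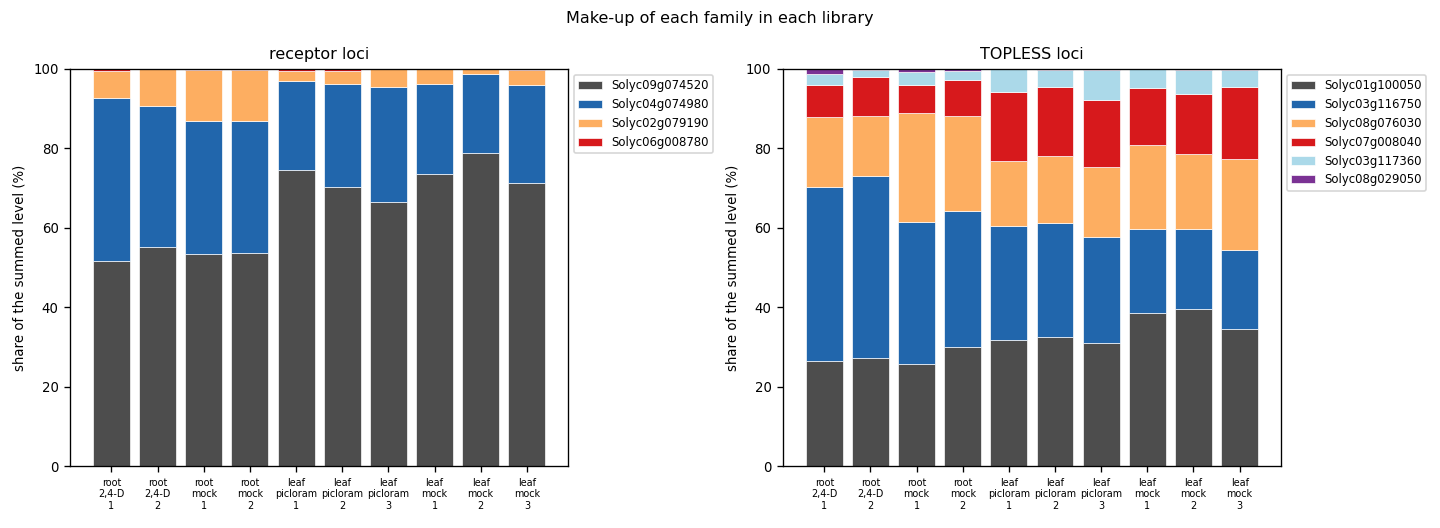
Share of the summed normalized counts of the receptor loci (left) and of the TOPLESS loci (right) held by each locus, in percent, in each of the 10 libraries (number under the group name). Solyc09g074520 takes 51.5% to 55.1% of the receptor sum in root and 66.6% to 78.8% in leaf, and Solyc03g116750 takes a larger part of the TOPLESS sum in treated than in mock libraries of each tissue.

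Mock root tips were compared with mock leaf primordia for levels at baseline. This comparison takes tissue, plant age, growth conditions and mode of mock treatment together, and their parts cannot be told apart. Of 3 tested receptors 1 was higher and 1 lower in root, and of 5 tested TOPLESS loci 1 was higher and 1 lower. Since 62.5% of all 15761 tested loci were called in this comparison, 32.7% higher and 29.8% lower (19.5% and 43.3% with equal library totals), these counts do not set the families apart. Solyc09g074520 was lower in root, at 288 ± 4.77 normalized counts in mock root (n = 2) and 613 ± 133 in mock leaf (SD, n = 3), a log2 difference of -1.06 ± 0.18 (SE, limma adjusted p = 0.000294). Solyc02g079190 was higher in root, at 68.9 ± 1.11 in mock root (n = 2) and 24.0 ± 12.5 in mock leaf (SD, n = 3), a difference of 1.63 ± 0.42 (SE, limma adjusted p = 0.00525). Solyc04g074980 was at 179 ± 0.0434 in mock root (n = 2) and 182 ± 31.1 in mock leaf (SD, n = 3), with a difference of -0.01 ± 0.16 (SE, limma adjusted p = 0.966, 95% interval -0.36 to 0.34).

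Of the TOPLESS loci, Solyc03g116750 was higher in root, at 175 ± 1.09 normalized counts in mock root (n = 2) and 96.0 ± 10.2 in mock leaf (SD, n = 3), a log2 difference of 0.87 ± 0.15 (SE, limma adjusted p = 0.000283). Solyc07g008040 was lower in root, at 40.2 ± 8.40 in mock root (n = 2) and 73.6 ± 7.74 in mock leaf (SD, n = 3), a difference of -0.87 ± 0.20 (SE, limma adjusted p = 0.00292). Solyc08g076030 (0.39 ± 0.17, SE, limma adjusted p = 0.0616), Solyc01g100050 (-0.33 ± 0.15, SE, limma adjusted p = 0.0773) and Solyc03g117360 (-0.68 ± 0.35, SE, limma adjusted p = 0.111) were not called, although the mock root and mock leaf libraries of each did not overlap as deposited. Such separation was found for 39.3% of tested loci upward and 35.2% downward.

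These differences between mock root and mock leaf also depend on how root and leaf libraries are brought to one scale. With equal library totals the median of all tested loci shifted by -0.58 on the log2 scale, and the calls of Solyc03g116750 (0.31, limma adjusted p = 0.0978) and Solyc02g079190 (1.09, limma adjusted p = 0.0506) ended, and the estimate of Solyc08g076030 turned to -0.16. Under that scaling Solyc04g074980 (-0.56), Solyc01g100050 (-0.88) and Solyc03g117360 (-1.21) were called lower in root (limma adjusted p = 0.0111, 0.000434 and 0.00998). Solyc01g100050 was also called lower with median ratios recomputed (-0.47), which shifted the median by -0.14, and after quantile normalization (-0.60), at limma adjusted p = 0.0168 and 0.00636. Relative to the median of all tested loci, Solyc03g116750 stood at 0.79 as deposited, 0.82 with equal totals and 0.50 after quantile normalization. On the same footing Solyc02g079190 stood at 1.56, 1.59 and 1.60, and Solyc09g074520 at -1.14, -1.12 and -1.66. The calls of Solyc09g074520 and Solyc07g008040 were kept in all 19 alternatives.

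**Figure D4:**
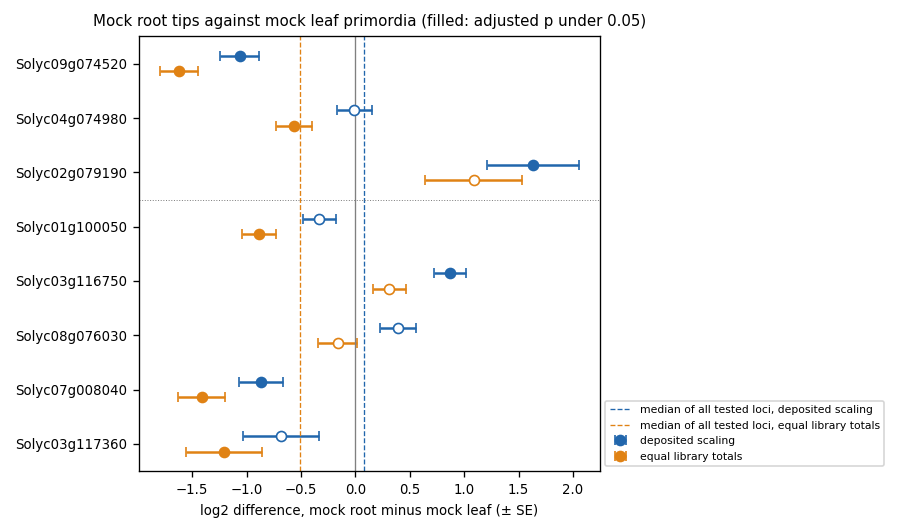
Log2 difference between mock root tips and mock leaf primordia (horizontal axis, ± SE) for the 8 tested loci as deposited (blue) and with equal library totals (orange); filled points passed an adjusted p under 0.05 and dashed lines mark the median of all tested loci under each scaling. With equal totals the points move left together with the median, which shifts by -0.58, and keep their order.

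Placed in order over the 4 groups on the deposited scale, Solyc03g116750 was the only one of the 10 loci in which no neighbouring groups overlapped. The share of all tested loci with 4 groups apart in this way was not counted, so this does not set the locus apart. Separation of single pairs of groups was common: mock root lay wholly above mock leaf for 39.3% of tested loci and wholly below for 35.2%. The means of Solyc03g116750 ran from 244 normalized counts on 2,4-D through 175 in mock root and 142 under picloram to 96.0 in mock leaf. The place of mock root in this order depends on the scaling. With equal library totals the picloram mean was 176 and the mock root mean 139, with no overlap, and the 2,4-D and picloram ranges overlapped. After quantile normalization the picloram libraries, at 135 to 179, spanned the mock root pair, at 154 and 155. For Solyc09g074520 the break lay between the leaf and root groups, and for Solyc02g079190 mock root stood above 2,4-D, which stood above the overlapping leaf groups. For Solyc08g076030 mock root stood above the other 3 groups, which overlapped one another in order. Solyc07g008040 and Solyc03g117360 had both leaf groups above both root groups, with overlap inside each tissue. For Solyc04g074980 and Solyc01g100050 all neighbours overlapped. With equal library totals the mock root mean of Solyc08g076030 (102) was below both leaf means, and the mock root range lay inside both leaf ranges. Under that scaling 2,4-D root overlapped picloram leaf for Solyc02g079190. Both leaf groups stood above both root groups for Solyc04g074980 and Solyc01g100050. After quantile normalization mock leaf and mock root of Solyc03g117360 overlapped.

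Other genes of the pathway were counted in the same fits. Of 21 Aux/IAA loci, the receptors' substrates and the partners of TOPLESS, 6 of 15 tested rose on 2,4-D and 11 of 18 rose under picloram, and none fell in either. Over all tested loci 3.48% rose and 1.07% fell in root, and 4.89% rose and 5.26% fell in leaf. The median log2 fold changes of the tested Aux/IAA loci were 0.96 in root and 0.80 in leaf. A locus could reach the minimum through treated libraries alone. Solyc06g084070 did so, averaging 29.4 on 2,4-D against 3.20 in mock root, and 32.3 under picloram against 3.91 in mock leaf. The counts and medians of this list depend in part on that rule. The count in root was 3 after quantile normalization, where 2.32% of all tested loci rose. With any 1 root library left out, calls in root were fewer both in the list and over all loci. Such fits leave a group with 1 library, so their counts are not given. Without 2,4-D library 1 or 2, only 12 Aux/IAA loci reached the minimum in root. In leaf the count was 7 without mock library 2, where 3.65% of all tested loci rose. It was also 7 without any 1 picloram library, where 2.9% to 3.29% of all rose. Solyc04g076850, the most abundant named here, averaged 2027 ± 151 normalized counts on 2,4-D and 1039 ± 13.7 in mock root (SD, n = 2 each), a log2 fold change of 0.96 ± 0.15 (SE, limma adjusted p = 0.0027, and 0.074 without 2,4-D library 1). Solyc09g083280 averaged 149 ± 9.96 under picloram and 33.3 ± 10.2 in mock leaf (SD, n = 3 each), or 2.17 ± 0.21 (SE, limma adjusted p = 0.000115). Of 21 loci listed as ARFs, with activating and repressing classes not separated, 20 were in the table. None of 13 tested was called in root by limma, although 1 was without mock leaf library 1 or 2 and with robust moderation, and 2 of 16 rose in leaf with none falling, beside the same shares over all loci. The risen pair were Solyc05g047460, at 135 ± 23.3 under picloram and 71.5 ± 4.18 in mock, and Solyc01g103050, at 151 ± 25.1 under picloram and 75.6 ± 7.93 in mock (SD, n = 3 each). Their log2 fold changes were 0.90 ± 0.15 and 0.98 ± 0.17 (SE, limma adjusted p = 0.00365 and 0.00408). At baseline 11 of 17 ARF loci were lower in root and 2 higher, where 29.8% of all tested loci were lower and 32.7% higher. With equal library totals 15 of 19 were lower and 0 higher, where 43.3% of all were lower and 19.5% higher. The ARF loci had a median log2 difference of -1.10 as deposited beside 0.08 over all tested loci. The identifiers in these lists were recalled from published family descriptions, and whether the families differ in response was not tested.

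The loci most like the leading members over the 10 libraries were also listed by Pearson's r of log2(value + 1), as a description. For Solyc09g074520 they were Solyc07g041510 (r = 0.98), Solyc08g014190 (r = 0.977) and Solyc03g112660 (r = 0.976), and 856 of 15760 loci had an r over 0.9. For Solyc01g100050, the TOPLESS locus of highest mean level, they were Solyc12g027580 (r = 0.92), Solyc05g006820 (r = 0.916) and Solyc01g108410 (r = 0.913), and 6 loci had an r over 0.9. All 6 named loci had a lower mean in root than in leaf, and the points share the contrast between tissues as well as library scaling and depth. Between members, Solyc09g074520 had an r of 0.847 with Solyc01g100050 and of -0.784 with Solyc03g116750 over the same 10 libraries. These were the highest and the lowest r among all pairs of tested members, and the other pairs lay between them.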

How the data were processed

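The authors deposited 1 table of normalized gene counts, a non-negative signal per locus and library. Per the submitters' processing notes, Salmon 0.8.2 and DESeq2 were used, in roles not stated. No build or annotation is named in the sources used here. Per the labels' protocols, libraries were made with a 3' end kit. Columns were matched to samples by title. Low values lay near whole multiples of a library step of 0.786 to 1.22, but only 58.5% to 86.9% of values up to 20 steps were whole within 0.1, so reads were not recovered and no count test was run. Total over step gives roughly 1.69 to 3.48 M reads per library.

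From the deposited values, limma 3.58.1 (R 4.3.3) with a mean-variance trend was fitted to all 10 libraries on log2(value + 1), with 4 group means (6 residual and 5.55 prior degrees of freedom). The root groups of 2 thus share the spread of the leaf groups. Fold changes on this scale understate changes of low loci. Testing within a tissue required a value of 10 in at least 2 of its libraries. The difference of responses required this of both tissues, the tissue comparison of either. Calls used a 2-sided Benjamini-Hochberg adjusted p under 0.05 over all tested loci. The fit was tried on simulated counts whose changes were larger than the treatment responses of the tested members. It therefore does not show how often changes of the members' size are found. Alternatives were pseudocount, minimum, scaling, robust moderation, each tissue alone, a replicate block and each library left out. All 10 members are named. For 1 member per family the 3 most correlated loci, and up to 2 called loci per pathway list and comparison, could be named. Members, lists and tests were chosen with earlier results of these data known. The RefSeq gene table (41476 rows) names 0 Solyc identifiers, so no symbols or sequences were attached. No member shared its values with another locus.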

Additional observations from a re-analysis of the deposited data

How the results depend on the processing

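The absence of receptor calls in both responses and of any call for the difference of responses held in every alternative run. The count of TOPLESS loci called was 1 in root and 0 in leaf with each tissue fitted alone, in place of 0 and 1. Over all loci tested in root, 5.75% rose and 3.26% fell in that fit, beside 3.48% and 1.07% in the fit of all libraries. In leaf 5.41% rose and 4.94% fell, beside 4.89% and 5.26%. The TOPLESS count in leaf ranged from 0 to 1 when 1 library was left out. Adjusted p lay between 0.0495 and 0.0765 in the fits where a call changed, and the cause was not tested. The replicate numbers were not taken to pair libraries, since no label gives them a meaning, root has only 2 and the leaf correlations differed in sign: deviations of same-numbered libraries correlated at 0.108 in root and at 0.0725, -0.0266 and -0.0266 in leaf. In root the photosynthetic sums did go with the number (16.5 on 2,4-D and 17.1 in mock for number 1, 113 and 95.4 for number 2). Between same-numbered root libraries 6 of the 8 members kept one direction, as did 67.1% of all tested loci. With the replicate block 0 TOPLESS loci were called in root, 1 in leaf and 3 between tissues, where Solyc08g076030 was added (adjusted p = 0.0436). Over all loci in that fit, 3.19% rose and 0.908% fell in root, and 4.61% rose and 5.05% fell in leaf. Between tissues 33% were higher and 29.7% lower in mock root. Between tissues Solyc08g076030 was also called without mock leaf library 1 and Solyc01g100050 without mock leaf library 3 (adjusted p = 0.0495 and 0.0446). Most estimates that changed sign were near 0. With equal totals and with quantile normalization Solyc09g074520 in root was 0.0014 and 0.0025, and the difference of responses of Solyc07g008040 was -0.034 and -0.052. Among the scalings the exception was the tissue difference of Solyc08g076030, -0.16 with equal totals against 0.39 ± 0.17 (SE) as deposited. The sign change farthest from 0 came with 1 library left out, in the leaf response of Solyc02g079190, at -0.35. With 1 library left out, ranges that crossed 0 ran from -0.113 to 0.093 for Solyc09g074520 and -0.070 to 0.22 for Solyc01g100050 in root, and from -0.35 to 0.47 for Solyc02g079190 and -0.073 to 0.157 for Solyc04g074980 in leaf. For the difference of responses they ran from -0.169 to 0.0066 for Solyc03g116750 and -0.17 to 0.25 for Solyc07g008040, and for tissue they were -0.094 to 0.126 for Solyc04g074980. Solyc06g008780 and Solyc08g029050 stayed under the minimum of 10 normalized counts in every library, and the reason was not tested.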
